A study of Saccharomyces cerevisiae with 2 samples.

Results

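ZK2 is a *Saccharomyces cerevisiae* strain that its labels call a bioethanol strain, and its RNA library is described here by itself, through every gene of its table. The members were all rows of the ZK2 gene table, which came to 5605 genes, out of 5699 genes listed for at least 1 of the 2 libraries of the series. The ZK2 cells were started at an OD600 of 0.05 in 25 mL YPD, whose sugar is glucose at 20 g/L, and were taken in early stationary phase. RNA extracted with hot phenol was treated with DNase I, and its poly(A) fraction was read on a HiSeq 2000 instrument. The genotype, ploidy and mating type of ZK2 and the number of cultures behind the library are not given in the sources used here. The other library comes from BYZ1, a MATa/MATalpha diploid with his3delta1, leu2delta0 and ura3delta0 on both copies and with lys2delta0 and met15delta0 on a single copy. Its table was used only for the genes that ZK2 did not list, to tell which could have been listed and which to name. With 1 library of ZK2 there was no replicate error, so levels carry the counting error of their reads and no test was made. In a bulk sample fewer cells of a type and less RNA per cell cannot be told apart.

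Yeast growing on glucose ferments most of it to ethanol and represses the genes for respiration and for other carbon sources. When glucose runs out, at the diauxic shift, the cells turn to the ethanol and acetate they made, which they oxidize in the mitochondria and partly turn back into sugar through the glyoxylate cycle and gluconeogenesis. As growth stops, the cells also lower protein kinase A activity, strengthen the cell wall, store trehalose and glycogen, and make heat-shock and other stress proteins, while ribosome production falls.

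The ZK2 table held 4.57 M uniquely mapped gene reads (M, 1e6), with a median of 204 reads a gene. Levels are given as RPKM, the reads of a gene per kilobase of coding length and per 1e6 gene reads, with the exact Poisson 95% interval of the count where it is printed. These intervals cover counting error only, since copies made by PCR could not be told from separate molecules. By the submitters' notes the build was sacCer2, which need not be the sequence of ZK2. Whether sequence differences lowered the level of any gene was not tested. The median gene had an RPKM of 33.9. At this depth 1 read gave an RPKM of 1 to a gene of 219 bp, so longer genes could be seen below that level. Of the 5599 genes matched to the R64 reference, 5235 were made up entirely of stretches of read length (49 bp) that occur once among the R64 coding sequences, and 243 were unique over less than 90% of their positions. Reads that fitted several places were not counted, so levels of near-identical copies are too low. Where this touches a result it is said beside it, and of the genes named only for their place in a list it holds for *RPL41A*, *SNO4*, *IMA2*, *PHO11*, *PHO12*, *FLO1*, *FLO9*, *SNO2*, *THI13*, *COS1* and *COX1*, each unique over less than 50% of its positions.

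Reads were concentrated in few genes. The highest gene held 5.12% of all gene reads, the 10 highest by RPKM held 12.9% (exact Clopper-Pearson 95% interval 12.86 to 12.92), the 50 highest held 28.0% and the 100 highest held 37.5%. Ordered by reads, 176 genes held 50% of the reads and 2014 genes held 90%. The range ran from an RPKM of 0.0404 to 50352, with 6 genes at or above 10000, 153 genes at or above 1000 and 1297 genes at or above 100. Those 1297 genes were 23.1% of the genes and held 79.8% of the reads. The 25th and 75th percentiles were 15.7 and 90.1, so the middle of the distribution spanned a 5.75-fold range.

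**Figure D1:**
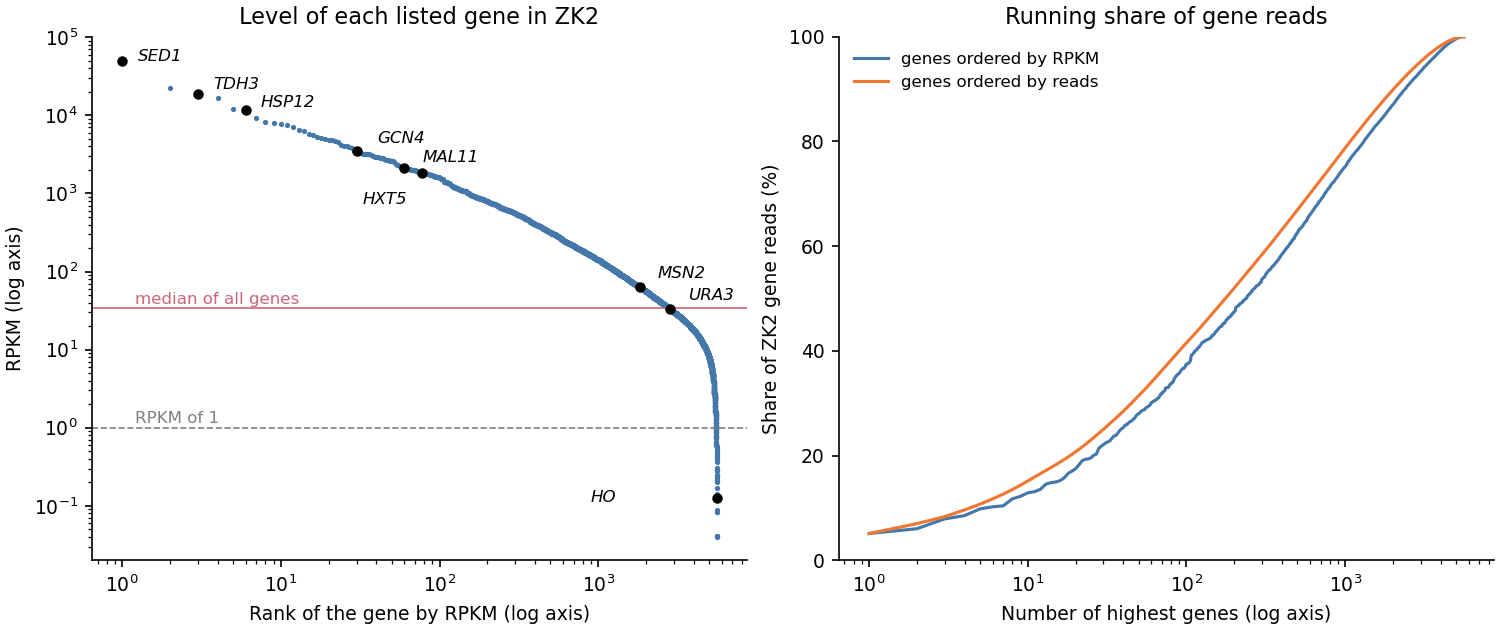
Left, the RPKM of every ZK2 gene against its rank, both on log axes, with 9 genes marked and lines at the median and at an RPKM of 1. Right, the running share of gene reads (%) against the number of highest genes, ordered by RPKM or by reads. The curve starts at 5.12% with *SED1* and reaches 37.5% at 100 genes ordered by RPKM.

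The gene of highest level was *SED1* (YDR077W, chromosome IV), which encodes a cell wall glycoprotein known as a major wall protein of stationary-phase cells. It had 234076 reads over 1017 bp and an RPKM of 50352 (50149 to 50557), and its reads covered 99.8% of the coding sequence. *CCW12*, a wall mannoprotein, came next at 22730 (22512 to 22949), and *TDH3*, the main glyceraldehyde-3-phosphate dehydrogenase, had 18863 (18737 to 18990). The interval of *SED1* lay far above those of both, so its lead was not a matter of counting error. Part of *TDH3* is not unique, so its level is too low. Per unique position *TDH3* came to 25160, above *CCW12*, which is unique throughout, while *SED1* came to 53092. The order of *CCW12* and *TDH3* therefore depended on whether the whole length or unique positions were used. *TAR1*, which lies within the ribosomal DNA on the strand opposite the 25S ribosomal RNA, had an RPKM of 16658. The deposited counts carry no strand, so its reads and reads of the ribosomal RNA could not be told apart. *FBA1*, the aldolase of glycolysis, had 11920 (11824 to 12016) and *HSP12*, a small hydrophilic stress protein that protects membranes, had 11786 (11613 to 11960). The intervals of *FBA1* and *HSP12* overlapped.

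Among the next genes of the 30 highest, cell wall and mitochondrial genes recurred. *PCK1*, phosphoenolpyruvate carboxykinase and the committed step of gluconeogenesis, had an RPKM of 8131, from 61325 reads. *POR1*, the pore of the mitochondrial outer membrane, had 7726. *FIT3* and *FIT2*, wall mannoproteins that help to hold iron-siderophores, had 7933 and 6396, and they are neighbors on chromosome XV. The wall mannoproteins *CWP2* and *TIP1* had 7622 and 7024. *OLE1*, the only fatty acid desaturase of yeast, had 6519, and *ERG25*, a sterol oxidase of ergosterol synthesis, had 4876. *DDR2* and *HOR7*, short genes known to respond to many stresses, had 5790 and 4205. *CPR1*, the cytosolic cyclophilin, had 5577, *YGP1*, a secreted glycoprotein known to be made on nutrient limitation, had 5216, and *PCS60*, a peroxisomal oxalyl-CoA synthetase, had 5168. *PLN1*, a lipid droplet protein, had 4910. *ATP2*, the beta subunit of the mitochondrial ATP synthase, had 4789, and *SDH3*, the cytochrome b subunit of succinate dehydrogenase, had 4504. *PDC1*, pyruvate decarboxylase, had 4671 and *PGK1*, phosphoglycerate kinase, had 3538. *HYP2*, translation factor eIF5A, had 4044. *HSP150*, a wall protein of the PIR family, had 4014, *NCE102*, a plasma membrane protein of eisosomes, had 3907, and *HPF1*, a large mannoprotein known in wine for preventing haze, had 3785. *GCN4*, the activator of amino acid synthesis genes, closed the 30 at 3533. *SPO24*, a short gene whose table entry gives no known function, was the remaining member, at 9133.

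Ordered by reads, the leading genes changed with their length. *SED1* and *TDH3*, with 86138 reads, came first, followed by *PCK1*, *FBA1* with 58844 reads and *HPF1* with 50241 reads over 2904 bp. *OLE1* had 45684 reads, *CCW12* 41767 and *FAS1*, the beta subunit of fatty acid synthase, 39813. *PCS60* had 38553 reads and *PDC1* had 36127. Of these 10 genes, *FAS1* was the only one outside the 30 highest by RPKM, at an RPKM of 1415.

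Genes were also grouped into 43 lists by role, with no gene in more than 1 list. The lists held 1365 of the 5605 genes and 58.7% of the reads. By definition 10.0% of all genes, 561 of them, rank in the top decile by RPKM, an RPKM of 277 or more, and the lists are set beside that share and beside the median of all genes. The lists of highest median level were glycolysis at 1971 and vacuolar proteases with a protease inhibitor at 859 (405 without that inhibitor). Next came the nuclear genes of the respiratory chain and ATP synthase at 854 and the TCA and glyoxylate cycles with gluconeogenesis at 719. The list of small heat-shock proteins, which also holds other heat-shock and membrane proteins, followed at 659. The lowest were Ty elements at 0.204, the mating-type specific genes at 2.43, meiosis and sporulation at 2.77 and the hexose transporters at 4.37.

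**Figure D2:**
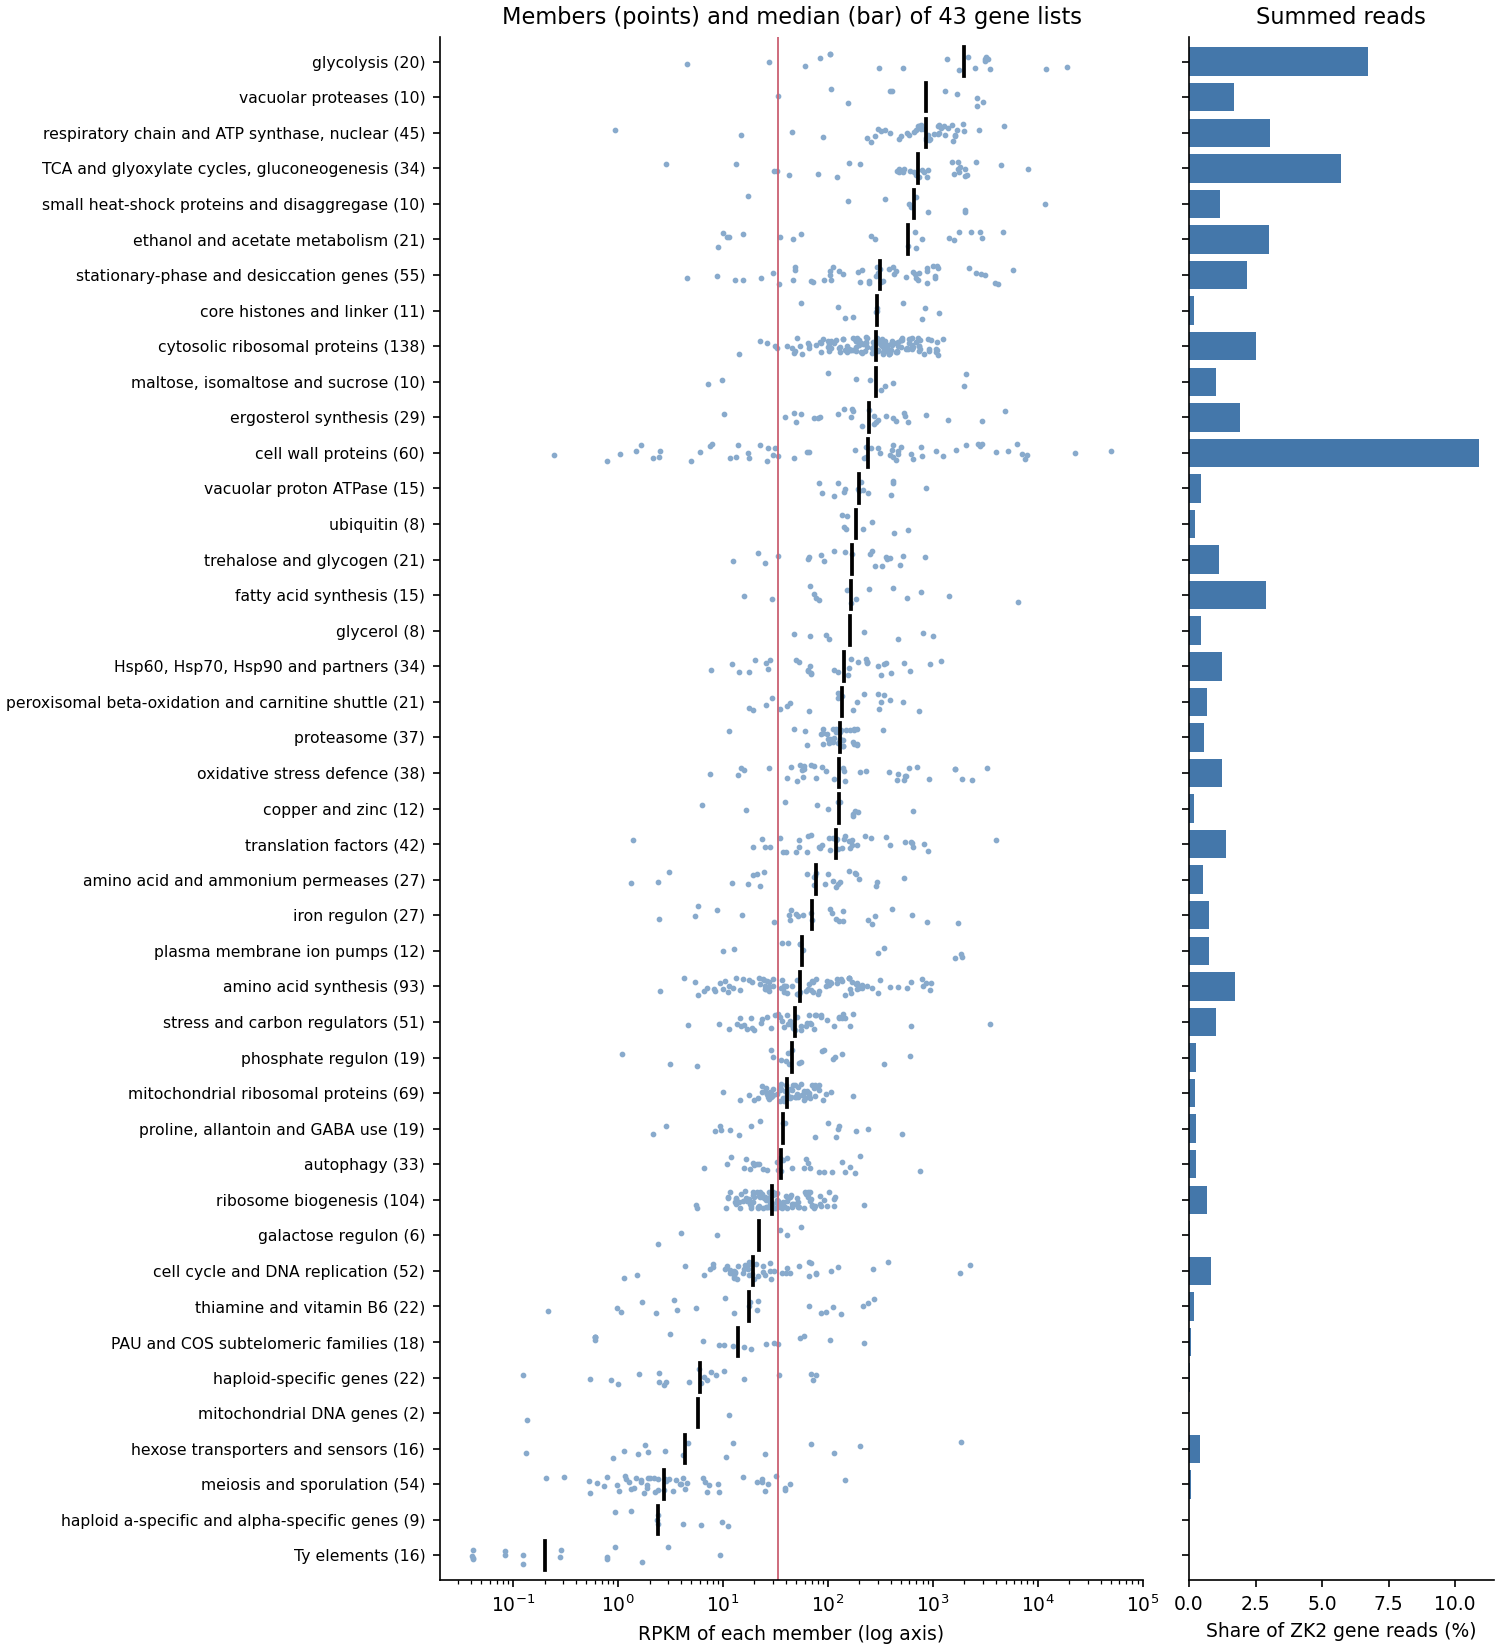
Left, the RPKM of each member (points, log axis) of 43 gene lists, ordered by their median (black bar), with the number of listed genes in brackets and the median of all genes, 33.9, as a line. Right, the share of ZK2 gene reads (%) of each list, from 10.9% for cell wall proteins to almost none for Ty elements and mitochondrial DNA genes.

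Cell wall genes took the largest share of reads of any list, 10.9%, and 29 of 60 were in the top decile. *SED1* alone held 5.12%, and without it the list held 5.78%, less than glycolysis at 6.73%. Their median RPKM was 244, but it was the widest of the 43 lists, with a 75th percentile 52.1 times the 25th, against 5.75 times over all genes. *SED1* and *CCW12* were the highest. *CCW14* had 2936, the glucanase *BGL2* 2836 and *CWP1*, the neighbor of *CWP2*, 2694. The wall enzymes *SCW4*, *EXG1* and *GAS1* had 1662, 1081 and 776. Mannoproteins known to be made without oxygen varied in level. *DAN1* had 1 read (RPKM 0.244) and *TIR1* had 21 reads (6.01), while *TIR3* and *TIR2* had 47.3 and 29.8. The flocculins *FLO1* and *FLO9* had 1.47 and 1.65, *FLO5* had 7.52 and *FLO11*, which serves invasive growth, had 26.8. *SPS22*, a spore wall gene, had 0.786.

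Glycolytic genes held 6.73% of reads and 14 of 20 ranked in the top decile. Besides *TDH3* and *FBA1*, *GPM1*, the phosphoglycerate mutase, had 3206, *CDC19*, pyruvate kinase, had 3120 and *TPI1*, triose-phosphate isomerase, had 2164. *PGI1*, phosphoglucose isomerase, had 1371. The subunits of phosphofructokinase were lower, with *PFK2* at 526 and *PFK1* at 309. The lowest were *GPM3*, a weakly expressed relative of *GPM1*, at 4.56 and the hexokinase *HXK2* at 27.7.

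Genes for making and using ethanol and acetate were spread over a wide range. The list of ethanol and acetate metabolism held 3.02% of reads, with a median of 583 and 12 of 21 genes in the top decile. The lowest members were the aldehyde dehydrogenases *ALD3* at 8.92 and *ALD2* at 9.92. *ACH1*, which handles acetyl-CoA and acetate in mitochondria, had 1437 and *ADY2*, an acetate transporter, had 694. *JEN1*, the lactate and pyruvate transporter, which is in no list, had 1651 (1623 to 1678).

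The TCA and glyoxylate cycles with gluconeogenesis held 5.71% of reads, and 25 of 34 genes were in the top decile. *PCK1* led and *SDH3* came next. *FBP1*, fructose-1,6-bisphosphatase of gluconeogenesis, had 2583 (2537 to 2629). *MLS1* and *ICL1*, malate synthase and isocitrate lyase of the glyoxylate cycle, had 2018 and 1840. *SFC1*, which moves succinate into and fumarate out of the mitochondrion, had 699. *DAL7*, a malate synthase of allantoin use, was the lowest at 2.89.

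The nuclear genes of the respiratory chain and ATP synthase had the largest part of any list in the top decile, 39 of 45, with 3.05% of reads and 4.69% of summed RPKM. The list was also even, with a 75th percentile 2.70 times the 25th. *ATP2* and *COX5A*, a cytochrome oxidase subunit, were the highest, at 4789 and 2783. *AAC3* and *COX5B*, the forms known to be made without oxygen, were the lowest, at 0.947 (4 reads) and 14.9. Genes of mitochondrial DNA had 13 reads, 12 of *OLI1* and 1 of *COX1*, and 7 of the 9 were not listed. Mitochondrial transcripts lack the long poly(A) tail by which the library was selected. The nuclear genes of the mitochondrial ribosome had a median of only 40.7, and 0 of 69 were in the top decile. *MRPS12* and *MRPS18* were the highest of them at 174 and 108, and *RSM22* and *MRPS5* the lowest at 10.1 and 14.4.

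Fatty acid synthesis held 2.89% of reads but 1.14% of summed RPKM, and most of its reads were in 4 genes. *OLE1* had 6519, *FAS1* 1415, *ACC1*, acetyl-CoA carboxylase, 781 and *FAS2*, the alpha subunit of fatty acid synthase, 567. The median of the list was 167, with *HFA1* at 16 and *FAA3* at 29.7 the lowest. Ergosterol synthesis held 1.91%, with a median of 246 and 12 of 29 in the top decile. *ERG25* and *ERG3*, oxygen-using steps late in the pathway, had 4876 and 2972, and *ERG11*, the target of azole drugs, had 1386. The early mevalonate genes *ERG8* and *ERG12* had 49.4 and 73.7, and the lowest were the steryl ester hydrolase *YEH2* at 10.1 and the acyltransferase *ARE1* at 38.9. Peroxisomal beta-oxidation with the carnitine shuttle had a median of 137. *YAT1* and *CRC1*, of the carnitine shuttle, had 745 and 522, and *OAF1* and *DCI1* were the lowest at 17.6 and 19.6.

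Transcripts of hexose transporters came mostly from few genes. Of 21 hexose transporters and sensors, 16 were listed and 1 was in the top decile. That gene was *HXT5*, a transporter known for cells that grow slowly or starve, with 14979 reads and an RPKM of 1842. *HXT7* had 205 and *HXT2* had 25.4. Only 4.92% of the positions of *HXT7* were unique, since it is nearly identical to *HXT6*, which was not listed. Taking the unique positions as its length gave *HXT7* a level of 4159, above that of *HXT5*. The transporters known for high glucose were low: *HXT3* had 10.8, *HXT1* 1.92 (15 reads) and *HXT4* 1.82 (14 reads). *HXT10* had 1 read.

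The list of maltose, isomaltose and sucrose use held 1.03% of reads but 0.607% of summed RPKM. Its 6 *MAL* genes held 0.904% of reads. The maltose permeases *MAL11* and *MAL31* had 2089 (17676 reads) and 2003 (16894 reads), ranks 60 and 69 of 5605. The maltases *MAL12* and *MAL32* had 354 and 254, but only 16% and 15.6% of their positions were unique. Per unique position they came to 2214 and 1633. The activators *MAL33* and *MAL13* had 188 and 100, *SUC2*, invertase, had 322 and *IMA1*, isomaltase, had 417. *IMA2* and *IMA5* were the lowest at 9.89 and 7.27, and 4 of 14 genes were not listed. The galactose regulon was split. The enzymes *GAL7*, *GAL1* and *GAL10* had 2.38, 4.0 and 8.85, and the regulators *GAL80*, *GAL3* and *GAL4* had 55.2, 41.3 and 35.4, all above the library median.

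Stress and stationary-phase genes were high as groups but not in every member. Of 55 genes known to be induced as growth stops, 31 were in the top decile, with a median of 315. *DDR2* and *HOR7* led. *TMA10*, whose product associates with ribosomes, had 3182, *RGI2*, known from respiring cells, had 2588 and *OM14*, of the mitochondrial outer membrane, had 2876. *SPG3* (8 reads) and *BTN2* were the lowest at 4.56 and 8.87. The list of small heat-shock proteins with the disaggregase also held other heat-shock and membrane proteins, among them *YRO2*, *HSP30*, *MRH1*, *HSP31* and *SNO4*. Of its 10 genes, 8 were in the top decile. *HSP12* was followed by *YRO2*, a membrane protein related to *HSP30*, at 2042 and by *HSP26*, a chaperone that binds aggregating proteins, at 2026. *HSP104*, the disaggregase, had 622, and *SNO4* and *HSP78* were the lowest at 17.5 and 156. The larger chaperones were more moderate, with a median of 142 and 9 of 34 in the top decile. *SSA1* and *SSB2* led at 1208 and 937, and *XDJ1* and *CPR7* were the lowest at 7.77 and 12.2.

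Trehalose and glycogen genes had a median of 171, with 8 of 21 in the top decile. *UGP1*, which makes the UDP-glucose that both stores need, had 838 and *TPS1*, trehalose-6-phosphate synthase, had 518. *SGA1*, a glucoamylase of spores, and *PIG1* were the lowest at 12.6 and 21.6. In oxidative stress defence 14 of 38 were in the top decile. *TSA1*, the main peroxiredoxin, had 3270 and *SOD2*, the mitochondrial superoxide dismutase, had 2357, while *GPX2* and *GRX8* had 7.61 and 13.9. The vacuolar protease list, whose enzymes break down protein in starving cells, held 1.71% of reads, and 7 of 10 members were in the top decile. Of the 7, *PBI2* (1721) is an inhibitor of protease B and not a protease, and without it the median was 405, against 859 with it. *PRC1*, carboxypeptidase Y, had 3032, *APE3* 2662 and *PEP4*, the protease that activates the others, 2632. *YSP3* was the lowest at 33.2. Autophagy genes had a median of 35.8, near that of all genes, and 1 of 33 was in the top decile, *ATG33*, a gene of mitophagy, at 764. *ATG8*, the ubiquitin-like protein of the autophagosome, had 201, and *ATG14* and *ATG10* were the lowest at 6.55 and 10.9.

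Genes for making protein were split. Cytosolic ribosomal proteins had a median of 289, with 71 of 138 in the top decile, and together held 2.51% of reads but 5.15% of summed RPKM. *RPL10* and *RPP0* led at 1254 and 1135, and *RPL22B* and *RPL41A* were the lowest at 14.2 and 22.4. Many of these genes come as near-identical pairs that lose reads to each other. Ribosome biogenesis factors, which make and assemble the subunits, had a median of 29.5, below that of all genes, and 0 of 104 were in the top decile. *NOP10* and *SNU13* were the highest at 221 and 118, and *DHR2* and *UTP9* the lowest at 5.55 and 5.70. Translation factors had a median of 121, with *HYP2* at 4044 and *YEF3*, elongation factor 3, at 903. *ANB1*, the form of eIF5A known from cells without oxygen, had 3 reads (1.38), and *TIF4632* had 19.5. The genes *TEF1* and *TEF2* for elongation factor 1A had 358 and 260, but they are copies of each other with 7.37% of positions unique, and per unique position they came to 4854 and 3529.

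The proteasome was the most even of the 43 lists, with a median of 130 and a 75th percentile 1.49 times the 25th, while 1 of 37 was in the top decile, *PRE4* at 338. *PRE3* followed at 189, and the lowest were *ECM29*, a proteasome adaptor, at 11.5 and *RPN13* at 47.4. The ubiquitin list had a median of 185, led by *UBI4*, polyubiquitin, at 577 and *UBC5* at 427, with *RSP5* and *CUE5* the lowest at 137 and 142. The vacuolar proton ATPase had a median of 198, with *VMA3* at 864 and *VMA1* at 423 highest and *STV1* and *VMA9* lowest at 82.1 and 88.7. Plasma membrane ion pumps had a median of 56.5. *PMA1*, the main proton pump, had 1908 and its small partner *PMP1* had 1844, while the sodium pumps *ENA5* and *ENA1*, near-identical copies, had 10.1 and 12.9. Only 8.74% and 11.4% of the positions of *ENA5* and *ENA1* were unique, so these levels are too low and their place in the list is uncertain.

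Amino acid synthesis had a median of 53.9, with 11 of 93 in the top decile, although *GCN4* itself was among the 30 highest genes of the library. *CPA1* and *ILV6*, regulatory or small subunits of arginine and branched-chain amino acid synthesis, led at 962 and 945. The lowest were genes of sulfate assimilation and methionine synthesis, *MET16* at 2.50 (9 reads) and *MET8* at 4.24. The *GCN4* message is known to be controlled mainly in its translation, which these reads do not measure. Permeases of amino acids and ammonium had a median of 77.1, from *MUP3* at 1.33 and *UGA4* at 2.42 to *DIP5* at 294 and *BAP2* at 533. The list of proline, allantoin and GABA use had a median of 37.2, from *DAL80* and *DAL1* at 2.16 and 2.85 to *GDH2* at 242 and *CHA1*, serine deaminase, at 510. Glycerol genes had a median of 161, with *GUT1*, glycerol kinase, at 1013 and *GPD1* at 813 highest and *FPS1*, the glycerol channel, and *GPP2* lowest at 47.5 and 67.4.

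In the iron regulon 5 of 27 genes were in the top decile, with a median of 70. *ISU1*, the scaffold for iron-sulfur clusters, had 1746 and *SIT1*, a siderophore transporter, had 879, while the reductases *FRE7* and *FRE4* had 2.47 and 5.47. The copper and zinc list had a median of 127, from *ZAP1* and *ZRT1* at 6.29 and 16.6 to *CTR2* and *CTR3* at 194 and 652. The phosphate regulon had a median of 45.1, from the repressible phosphatases *PHO12* and *PHO11* at 1.09 and 3.12 to *PHO84*, the high-affinity transporter, at 347 and *VTC1* at 605. Thiamine and vitamin B6 genes had a median of 17.9, from *THI13* (1 read) and *SNO2* (3 reads) at 0.214 and 0.981 to *PDX3* and *THI73* at 239 and 274.

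Genes of dividing cells were mostly low. Cell cycle and DNA replication had a median of 19.4, with 3 of 52 in the top decile, *RNR2* and *RNR4*, small subunits of ribonucleotide reductase, at 2250 and 1820, and *CLN3*, the cyclin that starts the cycle, at 376. *CDC6* and *CLB6*, of replication origins and S phase, were the lowest at 1.13 and 1.53, with 8 reads each. Histones stood apart from these, with a median of 292 and 7 of 11 in the top decile. *HTB2* and *HHT2* had 1158 and 841, and *CSE4*, the centromeric histone, and *HTZ1* had 55.2 and 126.

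Regulators of stress and carbon use were mostly moderate, with a median of 48.2. Of 51 genes, 2 were in the top decile, *GCN4* and *BCY1*, the inhibitory subunit of protein kinase A, at 621 (601 to 642). Of genes for the catalytic side of protein kinase A, *TPK2* had 174 and *TPK3* had 9.14. Of its upstream genes, *RAS2* had 74.1, *CYR1*, adenylate cyclase, 48.2 and *RAS1* 14.6. The stress factors *MSN4* and *MSN2* had 115 and 63.5, *HSF1*, the heat-shock factor, 69.9, *YAP1* 127, *SKN7* 45.5, *GIS1* 44.0, *RPH1* 75.7 and *ARR1* 41.8. The kinases *YAK1* and *RIM15*, which act when nutrients run out, had 139 and 13.7.

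Among the genes of glucose repression named in this paragraph, the activators all stood above the repressors *MIG1*, *MIG2* and *MIG3*. The kinase Snf1 and its partners had 67.9 for *SNF1*, 86.9 for *SNF4*, 97.8 for *SIP2*, 50.4 for *GAL83* and 28.7 for *SIP1*. The activators *ADR1*, *SIP4* and *CAT8* had 128, 85.2 and 61.3, and *RDS2* had 35.2. The Hap complex of respiratory genes had *HAP4* at 138, *HAP2* at 76.8, *HAP3* at 36.2 and *HAP5* at 26.4. The repressors *MIG2*, *MIG1* and *MIG3* had 19.6, 11.4 and 4.62 (3.0 to 6.8). Of the oxygen regulators *ROX1* had 146, *HAP1* 138, *MOT3* 23.8, *ECM22* 33.2 and *UPC2* 14.8. The growth regulators *SCH9*, *SFP1* and *RAP1* had 65.9, 56.0 and 41, *TOR2* and *TOR1* had 31.1 and 16.9, and *FHL1* and *IFH1* had 23.3 and 18.7. The nitrogen factors *GAT1* and *GLN3* had 164 and 18.9. The osmotic stress genes *HOG1*, *SKO1* and *HOT1* had 46.2, 38.0 and 16.

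Promoter sequence was set beside the levels for 5595 genes with a window from 600 to 100 bases before the start codon in the R64 reference, which need not be the sequence of ZK2. The stress response element, known to be bound by Msn2 and Msn4, was searched as AGGGG on both strands. It was in 35.6% of all windows, in 33 of 49 windows of the 50 highest genes (67.3%) and in 10 of 19 of the 20 highest (52.6%). By deciles of the genes the share was 53.1% in the highest, 26.8% in the seventh and 29.9% in the lowest. Of the stationary-phase list 41 of 55 windows held it (74.5%), and of the small heat-shock list 8 of 10. Of the trehalose and glycogen list 17 of 21 held it, and 15 of 21 held it more than once, against 8.70% of all windows. Cytosolic ribosomal proteins were near the background at 34.1%, and cell wall genes, the list with the largest share of reads, were below it at 25.0%. The post-diauxic shift element, searched as AGGGAT on both strands, was in 15.8% of all windows and in 8 of 49 of the 50 highest genes (16.3%).

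These stretches of 50 bases show stress response elements in windows of high genes, with the element (AGGGG, or CCCCT where it lies on the other strand) in capitals, written 5′ to 3′ in the direction of the gene from the RefSeq R64 genome. *SED1*, the highest gene, had 1 match, in the stretch at chrIV:600582-600631 on the plus strand, *HSP12* had 5, with the stretch at chrVI:106798-106847 on the plus strand, and *DDR2* had 4, with the stretch at chrXV:231926-231975 on the minus strand.
*SED1*: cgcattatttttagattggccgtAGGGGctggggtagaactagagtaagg
*HSP12*: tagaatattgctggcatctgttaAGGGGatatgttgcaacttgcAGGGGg
*DDR2*: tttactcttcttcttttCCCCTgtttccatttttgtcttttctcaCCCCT

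The heat-shock element, searched as GAANNTTC or TTCNNGAA, was in 36.9% of all windows and in 19 of 34 of the larger chaperone list (55.9%), but in 15 of 49 of the 50 highest genes (30.6%). TATAAA on both strands was in 55.9% of all windows and in 32 of 49 of the 50 highest genes (65.3%). A match is a description of letters in a window, not a site of binding.

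The carbon source response element, known as the site of Cat8 and Sip4 in genes of gluconeogenesis, was rare. It was in 30 of 5595 windows (0.536%), and 5 of 34 windows of the list of the TCA and glyoxylate cycles with gluconeogenesis held it (14.7%). Of the 30 windows, 11 belonged to genes of the top decile, and the lowest of the 30 was *SAP185*, at an RPKM of 10.3. This motif was added after the levels had been seen. The 5 genes of the list were *PCK1*, *FBP1*, *MDH2*, *MLS1* and *ICL1*, with ranks of 8, 51, 59, 68 and 79 of 5605. From the ethanol and acetate list, *ACS1* (rank 84) and *ADY2* (rank 233) held it. No match was found in the windows of *JEN1*, *SFC1* and *ADH2*. These stretches, of 4 of the genes, show the matches in capitals, in the direction of the gene. They lie at chrXI:630570-630619 (plus strand) for *PCK1*, chrXII:875267-875316 (minus) for *FBP1*, chrV:287283-287332 (minus) for *ICL1* and chrXIV:405819-405868 (plus) for *MLS1*, which has 2.
*PCK1*: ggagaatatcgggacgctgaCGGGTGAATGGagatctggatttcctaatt
*FBP1*: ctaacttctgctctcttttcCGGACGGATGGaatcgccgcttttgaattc
*ICL1*: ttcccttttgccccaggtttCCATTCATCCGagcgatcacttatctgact
*MLS1*: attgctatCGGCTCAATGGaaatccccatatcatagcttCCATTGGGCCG

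**Figure D3:**
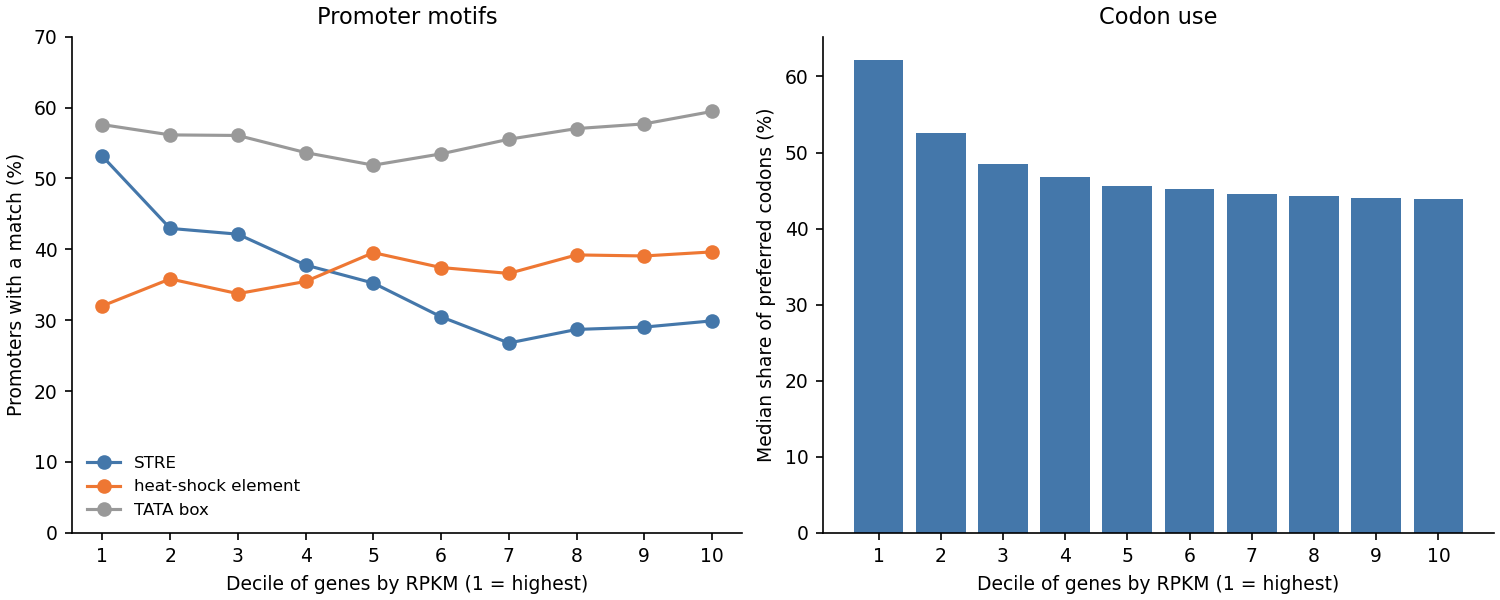
Left, the share of promoter windows (%) with a stress response element (STRE), a heat-shock element or a TATA box in each decile of the genes ordered by RPKM, 1 being the highest. Right, the median share of preferred codons (%) in the same deciles. The stress response element was in 53.1% of windows in decile 1 and in 29.9% in decile 10, and the preferred codons had medians of 62.1% and 43.9% there.

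Codon use was set beside the levels as well. The share of a gene's codons in a set of 23 known to be preferred in highly expressed yeast genes was 62.1% in the median of the top decile and 43.9% in that of the lowest. Across 5589 genes of this library, which are not independent replicates, Spearman's rho between that share and RPKM was 0.50. Glycolytic genes had a median of 88.9%, and *TDH3* had 97.5%. Some of the 100 highest genes lay well below the median of the top decile, among them *RDL1* (44.7%), *CIT2* (49.1%), *MAL31* (50.9%), *RGI2* (51.2%) and *JEN1* (51.4%). Apart from *RDL1*, which had less, these shares were still above the medians of deciles 3 to 10, the highest of which was 48.5%. In the other direction, genes of low level with many such codons included *PAU20* (89.6%, 1 read), *ANB1* (85.9%), *TIR1* (85.4%), *HXT4* (78.6%) and *HXT1* (72.5%). The genes of both groups were picked after their values were seen. Length and RPKM were weakly related, with a Spearman's rho of -0.18.

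For 27 enzymes or proteins made by more than 1 gene, the level was divided among the copies. In 13 of the 27 a lead gene held 80% or more of the summed RPKM. Nearly all of eIF5A came from *HYP2* (99.97%) rather than *ANB1*, of the TSA peroxiredoxins from *TSA1* (99.5%) rather than *TSA2* (14.8 RPKM), of the COX5 subunit of cytochrome oxidase from *COX5A* (99.5%), and of pyruvate decarboxylase from *PDC1* (99.4%), with *PDC6* and *PDC5* at 15.6 and 10.9. Among 3 hexose kinases the glucokinase *GLK1* held 97.3%, at 3198, against 61.1 for *HXK1* and 27.7 for *HXK2*, the form known from high glucose. *EMI2*, a relative of *GLK1* in the glycolysis list at 84.0, was not counted in this family. *CDC19* held 96.8% of pyruvate kinase, with *PYK2* at 104. *PGM2* held 91.7% of phosphoglucomutase, with *PGM1* at 33.3. *CYC1* held 89.6% of cytochrome c, against *CYC7* at 45.4, and *GPD1* 88.7% of glycerol-3-phosphate dehydrogenase, against *GPD2* at 103.

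The other lead genes above 80% were *PET9* of the ADP/ATP carriers (85.2%), with *AAC1* at 298, *PMA1* of the proton pumps (84.7%), with *PMA2* at 344, *ALD4* of the aldehyde dehydrogenases (82.6%) and *CTA1* of the catalases (82.6%). *ALD4* is the mitochondrial form, and *ALD6*, the cytosolic form, had 583, with *ALD5* at 11.5. *CTA1* is the peroxisomal catalase, at 455, and *CTT1*, the cytosolic one known for stress, had 95.7 (88.9 to 103).

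**Figure D4:**
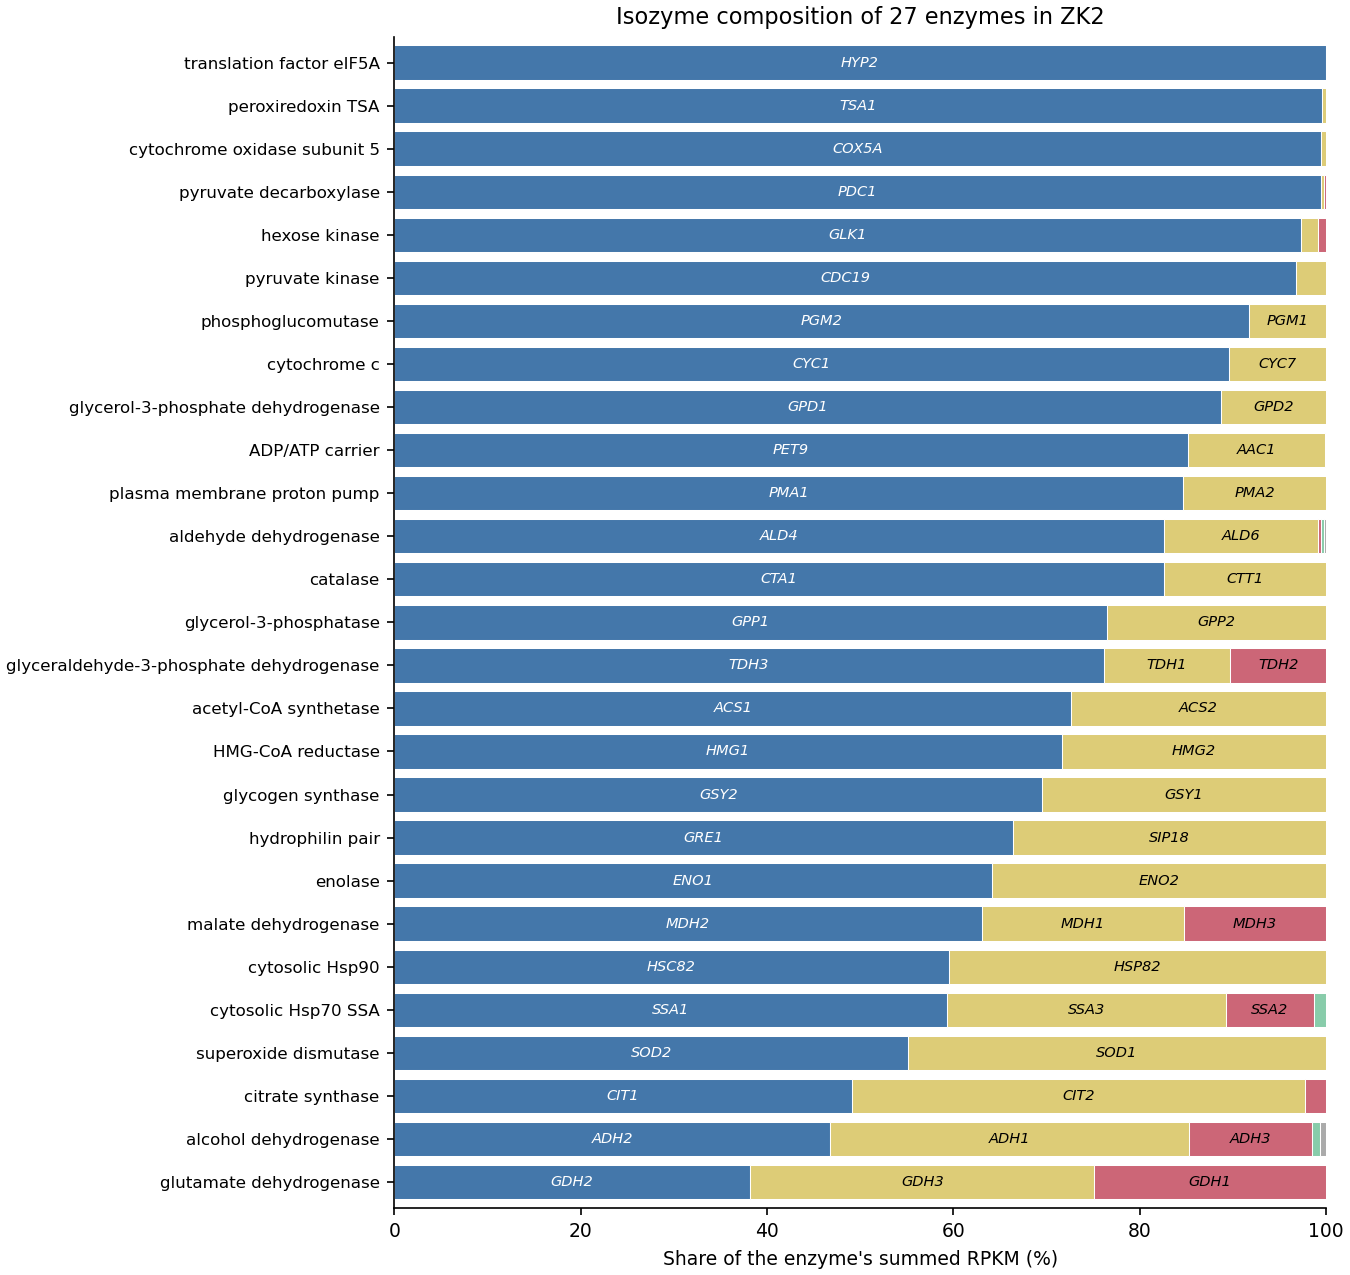
Each bar divides the summed RPKM of 27 enzymes or protein families (100%) among their genes, ordered by the share of the lead gene. The lead gene held from 99.97% (*HYP2*) down to 38.2% (*GDH2*), and parts above about 6% carry the gene's name.

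The remaining families were shared more evenly. *TDH3* held 76.1% of glyceraldehyde-3-phosphate dehydrogenase, with *TDH1* at 3377 and *TDH2* at 2539. *GPP1* held 76.5% of glycerol-3-phosphatase at 219. *ACS1*, the acetyl-CoA synthetase known from growth without glucose, held 72.7% at 1792, and *ACS2* had 673. *HMG1* held 71.6% of HMG-CoA reductase at 214, with *HMG2* at 84.7, and *GSY2* held 69.5% of glycogen synthase at 263, with *GSY1* at 115. *GRE1* and *SIP18*, hydrophilins of drying cells, had 2198 and 1111. *ENO1* held 64.2% of enolase at 3184, against *ENO2*, the form known from glucose, at 1778. Of malate dehydrogenase, *MDH2*, the cytosolic form of gluconeogenesis, held 63.0%, with the mitochondrial *MDH1* at 739 and the peroxisomal *MDH3* at 516.

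In some families the leading genes were close. The citrate synthases *CIT1*, of mitochondria, and *CIT2*, of peroxisomes, had 1758 (1726 to 1790) and 1743 (1710 to 1775), so their intervals overlapped, and *CIT3* had 80.9. *ADH2*, known for oxidizing ethanol in respiring cells, had 2807 (2760 to 2855), above *ADH1*, which makes ethanol, at 2313 (2270 to 2356), with *ADH3* at 787, *ADH4* at 56.0 and *ADH5* at 35.2. *GDH2* and *GDH3*, of glutamate breakdown and synthesis, had 242 and 235, with overlapping intervals, and *GDH1* had 158. *SOD2* held 55.1% of superoxide dismutase, with *SOD1* at 1918. The Hsp90 genes *HSC82* and *HSP82* had 344 and 234. Of the SSA chaperones *SSA1* held 59.4%, *SSA3* had 609, *SSA2* 193 and *SSA4*, known for heat shock, 25.9. *SSA1* and *SSA2* are near-identical, with 41.9% and 41.6% of positions unique, and per unique position *SSA1* held 72.4%. No lead gene changed when reads or unique positions were used in place of RPKM.

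Genes with little or no signal were the other end of the library. An RPKM below 1 was found for 78 genes, 1.39% of those listed, which held 242 reads together. Of them, 35 had 1 read and 75 had fewer than 10, and for 20 the upper end of the interval was also below 1. Ty elements, which are retrotransposons, made up 13 of the 78, and the 10 longest genes below 1 were all Ty open reading frames, YJL113W, YHL009W-B, YBL100W-B, YOR192C-B, YOR343W-B, YLR410W-B, YCL019W, YDR210W-B, YPR158W-B and YNL284C-B. Their RPKM ran from 0.0404 (1 read) to 0.947 (23 reads). Ty copies resemble each other, and reads that fitted several were not counted: YBL100W-B, for example, was unique over 10.8% of its positions. The highest Ty frame was YGR109W-B at 9.33 (198 reads). Meiosis genes made up 8 of the 78, haploid-specific genes 4 and genes of the *PAU* and *COS* families 4, and 40 were in no list.

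Most genes of the mating and sporulation lists had few reads. The 9 genes made in cells of a single mating type had 160 reads together and a median of 2.43. Of the a-specific genes, the pheromone genes *MFA2* and *MFA1* had 11.2 (6 reads) and 9.85 (5 reads), *STE2*, the receptor, 6.25, *STE6*, the pheromone exporter, 4.12, *ASG7* 2.43 and *BAR1* 2.36. Of the alpha-specific genes, *MF(ALPHA)2* had 2.41 (4 reads), *MF(ALPHA)1* 1.32 (3 reads) and *STE3*, the receptor, 0.929 (6 reads). All 9 genes were below the median of the library.

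Haploid-specific genes, which cells carrying both mating types keep off, had a median of 6.0 over the 22 of 29 listed. *HO*, the mating-type switching nuclease, had 1 read (0.124), *NEJ1*, of DNA end joining, 4 reads (0.850), *FUS1* and *FUS2*, of cell fusion, 0.995 and 0.538, and the pheromone pathway genes *STE5*, *FUS3*, *GPA1*, *FAR1* and *STE4* had 1.59, 2.47, 5.86, 6.14 and 6.54. *RME1*, a repressor of meiosis, had 7.75 and *KAR4* 8.68. The *PRM* genes, induced by pheromone, ran from *PRM8*, *PRM2*, *PRM10* and *PRM1* at 2.45, 2.77, 2.85 and 4.74 through *PRM9*, *PRM5* and *PRM3* at 7.07, 10.3 and 15.8 to *PRM4* at 77.5. *DDI1*, *AMN1* and *HMRA1* were the other members above the library median, at 71.6, 69.9 and 34.5. *HMRA1* holds the a1 sequence, which cells carrying both mating types do express, so it is not haploid-specific although the list holds it. The ploidy of ZK2 cannot be read from these levels.

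Meiosis and sporulation had a median of 2.77, with 0 of 54 in the top decile. The list does not hold *SPO24*, which is named for sporulation and had an RPKM of 9133, at rank 7. *SPS100*, a spore wall gene, had 145 (649 reads) and *SWM1*, a subunit of the anaphase-promoting complex, had 43.9. *IME1* and *NDT80*, the activators of early and middle meiosis, had 2.02 (10 reads) and 6.73. *LDS2* and *SPO77* were the lowest at 0.204 and 0.305. The URS1 core, the site through which Ume6 represses early meiotic genes, was searched as GCCGCC on both strands and was in 10.5% of all windows and in 12 of 54 windows of this list (22.2%). It was also in 10 of 49 windows of the 50 highest genes (20.4%). The stretches of *DMC1*, at chrV:548261-548310 on the plus strand, and of *MEK1*, at chrXV:996632-996681 on the minus strand, show it in capitals for 2 recombination genes with RPKM of 4.14 and 1.03.
*DMC1*: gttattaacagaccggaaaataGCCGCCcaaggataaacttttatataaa
*MEK1*: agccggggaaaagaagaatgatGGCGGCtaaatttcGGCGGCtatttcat

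The positions of genes on the R64 chromosomes were set beside their levels. Of the 160 genes that are among the 5 outermost protein-coding genes at a chromosome end, 81 were not listed for ZK2 (50.6%), against 5.70% of genes 41 or more from an end. The listed ones had a median RPKM of 6.78, against 34.8 for the inner genes. For genes 11 to 20 from an end the median was 34.5. Among the listed genes, 10.1% of the 5 outermost were in the top decile, and 9.86% of genes 41 or more from an end. *MAL11* and *MAL31* were the highest among the outermost genes, *PCK1* and *JEN1* among genes 6 to 10, and *FIT3*, *FIT2* and *HPF1* among genes 11 to 20. The *PAU* and *COS* families of these regions had 18 of 36 genes listed, with a median of 14.1, from *PAU4*, *PAU8*, *PAU20* and *PAU24*, with 1 read each, to *COS6* at 222 and *COS1* at 105. Many of them are near-identical, so this share of unlisted genes includes genes whose reads could not be placed. The shares over R64 genes can also include genes that were never searched. R64 has 6021 protein-coding genes, and 5699 genes were listed for at least 1 of the 2 libraries.

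**Figure D5:**
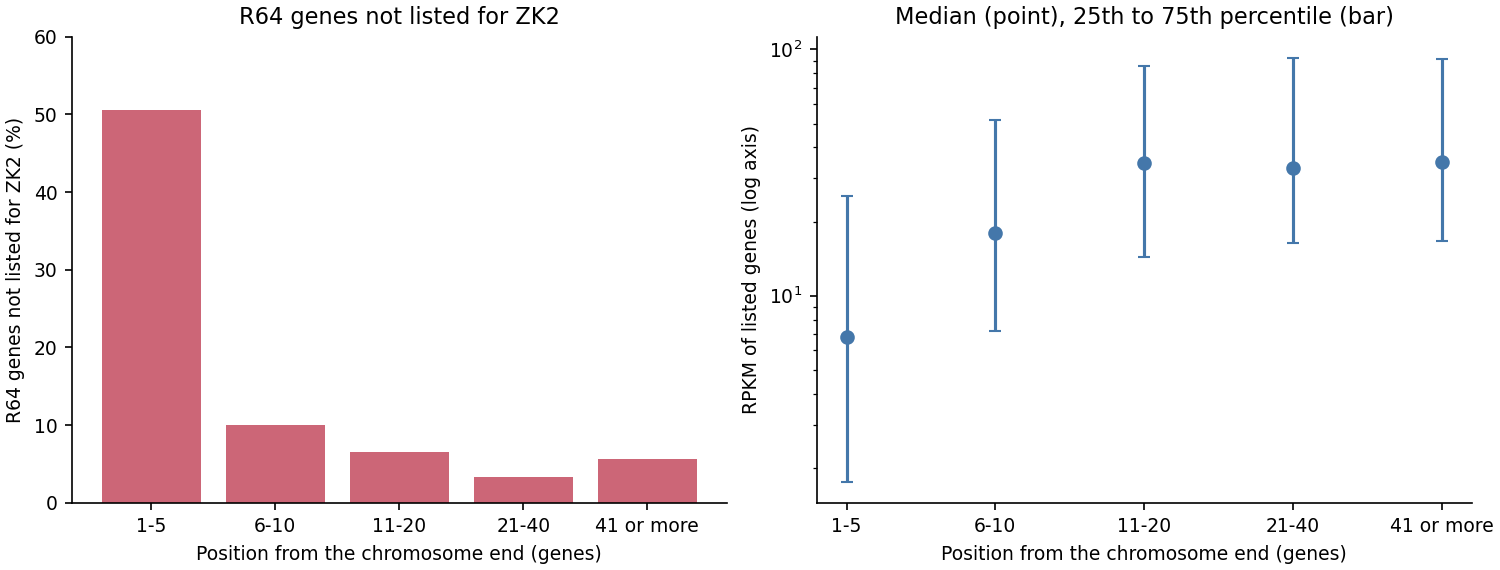
Left, the share of R64 protein-coding genes (%) not listed for ZK2, by position counted in genes from the nearer chromosome end. Right, the median RPKM of the listed genes (point, log axis) with bars from the 25th to the 75th percentile. Genes 1 to 5 from the end had 50.6% unlisted and a median of 6.78, against 5.70% and 34.8 for genes 41 or more from the end.

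Among genes not listed for ZK2, 94 were listed for BYZ1, so they were in the set of genes searched. Counted from the nearer chromosome end, R64 holds 160 genes at positions 1 to 5, 160 at 6 to 10 and 320 at 11 to 20. It holds 640 at 21 to 40 and 4722 further in. Of the 94 genes, 15 were Ty frames and 42 lay within 20 genes of a chromosome end. Among them were 10 runs of neighbors, of which the 3 with most reads in BYZ1 were *PAU3*, *ADH7*, *RDS1* and *AAD3* on the right arm of chromosome III, *AGP3*, *AQY3*, *DAK2* and *ZNF1* on the left arm of chromosome VI, and *AAD15*, YOL164W-A, *BDS1*, YOL163W and YOL162W on the left arm of chromosome XV. A count of 0 allows up to 3 reads, an RPKM of up to 0.338 for *AQY3* and for *BDS1*. Whether these genes are in the ZK2 genome was not tested. In the other direction 28 genes were listed for ZK2 alone. *URA3* was among them, and it is deleted in BYZ1 by its genotype.

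Marker genes often deleted in laboratory strains (*LEU2*, *HIS3*, *LYS2*, *URA3* and *MET17*) were all listed for ZK2. *LEU2* had 71.9 (360 reads over 99% of its length), *HIS3* 52.5 (98.9%), *LYS2* 52.0 (99.4%) and *URA3* 33.5 (97.3%). *MET17*, of methionine synthesis, had 7.05, and its 43 reads covered 63.5%.

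Neighboring genes were hardly alike in level. Over 5295 pairs of neighbors, Spearman's rho of their RPKM was 0.08, given as a description across genes. In 69 pairs both genes were in the top decile, and 13.3% of the right-hand neighbors of such genes were in it too. *FIT2* and *FIT3*, *CWP2* and *CWP1*, and *HSP150* and *CIS3* (794) were such pairs, picked because in each both genes encode wall proteins. Other pairs were of unlike kind, such as *SSA1*, a chaperone, and *EFB1*, a translation factor.

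Genes of unknown function, or with no symbol in the table, numbered 900, with a median RPKM of 23.2 and 57 in the top decile (6.33%). After *SPO24*, *TMA10* and *RGI2* the highest was YLR154C-G at 2328, a frame inside the ribosomal DNA, where strand could again not be told. *RDL1*, with a rhodanese-like domain, had 2085, and *YRO2* followed at 2042. YDR524C-B had 1875, *RRT15* 1875, *DPA10* 1827 and YMR181C 1815, all short frames of at most 465 bp. *RRT15* was covered over only 74.6% of its length.

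The percent of each coding sequence covered by reads, deposited beside the counts, told where reads fell. The median gene was covered over 96.1%. Of 4803 genes with 50 or more reads, 134 were covered by over 20 percentage points less than reads placed at random would cover. The 10 largest shortfalls were in genes with near-identical relatives. *TEF2* was covered over 7.04%, *HXT7* over 7.36%, *RPL1A* over 9.33%, *TEF1* over 12.3%, *EFT2* and *EFT1*, elongation factor 2, over 13.3% and 15.3%, *COS5* over 15.2%, *ENA1* over 11.9%, and YHL050C and YBL113C, of the telomeric Y' elements or their like, over 17.9% and 12.6%. For *TEF1* unique stretches reach 12.3% of its length, so its reads filled what could be covered. *RPL1A*, *YBL113C*, *COS5* and *YHL050C* fell short of the part that unique stretches reach by 29.7, 21.6, 18.1 and 14.6 points. The rest of the 10 fell short of it by at most 5.23 points.

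Set against the unique part of each gene in place of its whole length, 79 of 4772 genes still fell short by over 20 points. *DMO1*, known for growth without oxygen, had 94 reads on 25.1% of a sequence that is unique throughout. YLR162W, of unknown function and at rank 219, had 1202 reads on 30.0%. YHL008C was covered over 33.9%, *FIT1*, the relative of *FIT2* and *FIT3*, over 37.7% with 57 reads, and *SPO75*, a sporulation gene, over 57.7%. The next were *RSC3* at 53.6%, *TPO3*, a polyamine transporter, at 34.3%, *COS8* at 57.0%, *PGA3* at 52.7% and *GMH1* at 59.6%. The sequence of ZK2 itself was not analysed here.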

How the data were processed

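The deposited ZK2 table gives, for each gene with at least 1 read, the count of uniquely mapped reads, the coding length, the percent of that length covered by reads and the RPKM, all as the authors made them. The deposited counts are raw, the deposited percent of coverage is relative to the coding length, and the RPKM of the authors were recomputed from reads, length and total with a largest relative difference of 1.2e-08. The build, sacCer2, is credited to the submitters' processing notes, and the sources used here do not give the aligner for ZK2. The cultures behind the library are also not given, so there is 1 sample, no group comparison and no test.

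Levels carry exact Poisson 95% intervals and shares of reads exact Clopper-Pearson 95% intervals, which cover counting error only. For a gene not listed, a count of 0 allows up to 3 reads. Gene names, gene order, promoters and unique 49-base stretches came from RefSeq R64, whose build differs from that of the table, through the gene identifiers of the table: 5599 matched and 6 did not. Promoter coordinates are those of R64. The 43 lists do not overlap, since a gene counts only in the first list that holds it. Named genes were the 30 of highest RPKM, the 10 with most reads, the 2 highest and 2 lowest of each list, every isozyme, the 10 longest below an RPKM of 1, the 10 largest coverage shortfalls among genes with 50 or more reads, the 10 highest genes of unknown function, 5 marker genes and all mating-type and regulator genes. A few genes that this rule names are not reported here. Other named genes were chosen after their values were seen, and all members and lists were chosen with earlier results of these data known. Expected coverage assumed reads placed at random. The scripts were tested on simulated data. Python 3.11.15, pandas 2.3.3, NumPy 2.4.6, SciPy 1.17.1 and Matplotlib 3.10.9 were used. The alternatives ranked by reads, used shares of summed RPKM, left out *TAR1*, changed thresholds and totals, and counted unique positions only.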

Additional observations from a re-analysis of the deposited data

How the results depend on the processing

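The share of the 10 highest genes was 15.2% when they were ranked by reads, 17.5% as a share of summed RPKM and 12.6% without *TAR1*. Genes of low level numbered 38 below an RPKM of 0.5 and 150 below 2. The lists held 61.5% of summed RPKM, and 59.1% of reads when *TAR1* was left out of the total. Single lists moved more: 20 of 43 shares changed by over 1.5 times as shares of summed RPKM, fatty acid synthesis to 1.14%, against 2.89% of reads, and cytosolic ribosomal proteins to 5.15%, against 2.51%, which turned their order. The lists without *SED1*, without *PBI2* and with *MAL* genes only were alternatives chosen after seeing the data. Coverage shortfalls numbered 65 above 30 points, 537 above 10 points and 79 when only the unique part of each gene was expected to be covered, an alternative chosen after seeing the data. The median RPKM was 35.8 over genes with 10 or more reads and 38.9 with a total that left out the 10 highest genes. Of the 27 isozyme families, 12 had shares that moved beyond their interval when unique positions were used, and each kept its lead gene. With 1 library no replicate could be left out and culture-to-culture variation is unknown. No paired analysis was possible because the series holds 1 library of each strain. Depth limits the low genes most: for 58 of the 78 genes below an RPKM of 1, the upper end of the counting interval was above 1.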
